A study of Homo sapiens with 2 samples.

Results

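The RAB27 GTPases and the proteins that bind them were examined as 9 genes, RAB27A, RAB27B, the synaptotagmin-like genes SYTL1 to SYTL5, MLPH and UNC13D, out of 18417 genes that the platform annotation names through a probe set with a single symbol. The genes were taken by symbol, and the set was chosen by the difference of SYTL3 between the same 2 arrays that are described here, so the values of these genes are a description and support no test. Each of the 9 genes had exactly 1 probe set, and no probe set with several symbols held any of them. The 2 groups were stable SW480 transfectants that overexpress the coding sequence of TFAP2E, which encodes the transcription factor AP-2 epsilon, and SW480 cells carrying the empty pTarget expression vector, with 1 Affymetrix array of total RNA each. SW480 is an established human colorectal adenocarcinoma line, and the cells of both groups had been kept under Geneticin and grown from picked single clones. The labels do not give how many clones an array holds, and with 1 array per group a difference between clones and an effect of TFAP2E cannot be told apart. No value has a replicate, so no test or error can be given, and a fold of 2 served as a fixed rule of size. The probe set of TFAP2E read 6.81 on the TFAP2E array and 6.77 on the empty vector array (log2 difference 0.04). A larger difference in either direction was found for 82.8% of the genes that passed the filter described below. The overexpression was thus not seen in this probe set, and both the overexpression and the directions given here rest on the labels.

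RAB27A and RAB27B are small GTPases that, when bound to GTP, sit on secretory granules, lysosome-related organelles and multivesicular endosomes and recruit effectors that move, tether or dock the organelle at the plasma membrane. The synaptotagmin-like proteins bind RAB27 through an N-terminal Slp homology domain and membrane lipids through a pair of C-terminal C2 domains. MLPH, melanophilin, links RAB27A on melanosomes to the motor myosin Va, and UNC13D, also called Munc13-4, prepares granules of cytotoxic lymphocytes for fusion. In cancer cell lines the RAB27 GTPases are known for their part in the release of exosomes.

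SYTL3 was higher in the TFAP2E cells, and the other 8 genes stayed below 1.5-fold. SYTL3, whose protein binds phospholipids through a calcium-dependent C2 domain, read 7.55 on the TFAP2E array and 6.05 on the empty vector array, in log2 units made by RMA, a method that corrects background, brings the arrays to 1 distribution and summarises the probes of a probe set. The log2 difference, TFAP2E minus empty vector, was 1.496, or 2.82-fold. Both values lay above 5.55, the pooled median of the 2 arrays, which served as the filter on dim genes. It marks no detection limit. A gene was counted as measured when the higher of its 2 values reached it. The difference was 1.45 above the median difference of the 11548 measured genes, 0.04. Larger differences in either direction were found for 4 of these genes.

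**Figure D1:**
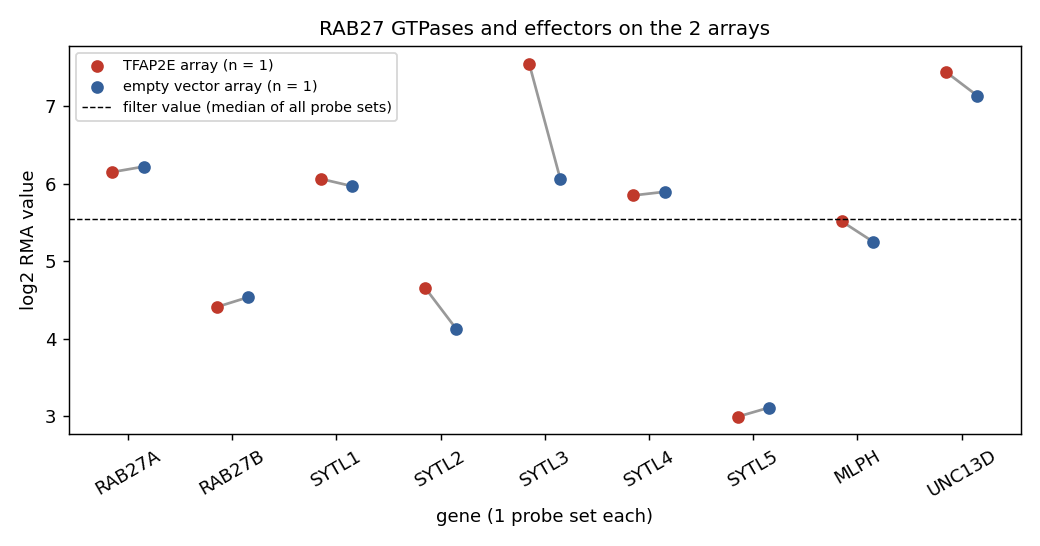
The log2 RMA value of each of the 9 genes (horizontal axis) on the TFAP2E array (red, left point) and on the empty vector array (blue, right point), 1 array each, with a grey line joining the pair and a dashed line at the filter value of 5.55. SYTL3 has the steepest line, at 7.55 on the TFAP2E array and 6.05 on the empty vector array; heights are not comparable between genes, whose probes differ.

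A promoter window of SYTL3 is shown here because the introduced gene encodes a DNA-binding factor, and one of SYTL4 because it held a match to GCCNNNGGC, the first of 3 forms of the AP-2 motif searched. The windows come from RefSeq (GRCh38.p14) and span 250 bases before to 50 after an annotated start. Of the 9 genes, 7 had 16 such windows. No window was used for SYTL2 and UNC13D, which were therefore not searched. The 250 bases before 1 of the 2 listed starts of SYTL3 (chr6:158649804-158650053, plus strand, inside the annotated span of the gene) and before 1 of the 2 starts of SYTL4 (chrX:100732122-100732371, minus strand) read as follows, with a match to GCCNNNGGC in capitals.
SYTL3: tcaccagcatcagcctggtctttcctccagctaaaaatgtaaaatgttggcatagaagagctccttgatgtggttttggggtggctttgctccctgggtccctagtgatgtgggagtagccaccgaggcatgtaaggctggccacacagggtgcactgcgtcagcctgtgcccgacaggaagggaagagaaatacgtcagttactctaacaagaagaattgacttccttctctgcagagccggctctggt
SYTL4: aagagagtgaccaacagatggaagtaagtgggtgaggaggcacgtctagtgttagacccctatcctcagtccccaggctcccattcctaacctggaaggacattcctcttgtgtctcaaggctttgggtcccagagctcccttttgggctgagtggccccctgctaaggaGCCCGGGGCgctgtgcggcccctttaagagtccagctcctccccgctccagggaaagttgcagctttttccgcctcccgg

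The motif GCCNNNGGC, which has the same form on both strands, was found once, beginning 80 bases before that start of SYTL4, and in neither window of SYTL3. It was present in 23.2% of all 35116 windows of 300 bases and in 1 of the 16 windows of these genes. The form with 4 bases between GCC and GGC, also the same on both strands, stood in 21.4% of all windows and in 2 of the 16, in a window each of RAB27A and RAB27B. The form GCCNNNGGG, searched on both strands and differing from GCCNNNGGC in its last base, stood in 36.0% of all windows and in 3 of the 16, in windows of SYTL1, RAB27A and SYTL4. The SYTL3 window printed above had 52.7% G and C and 6 CpG dinucleotides over its 300 bases, and the second SYTL3 window (chr6:158662697-158662996) had 37.3% G and C and 1 CpG. The median over all windows was 58.7% and 14 CpG. A match here is a match of letters. Neither SYTL3 window held any of the 3 forms. Both windows lie downstream of the first base of the annotated span of SYTL3. The sequence before that base was not searched.

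Among the GTPases, RAB27A was measured. It read 6.15 on the TFAP2E array and 6.22 on the empty vector array (log2 difference -0.07). RAB27B was dim on both arrays, at 4.41 on the TFAP2E array and 4.53 on the empty vector array, with a difference of -0.13. Both GTPases thus read slightly lower in the TFAP2E cells, and RAB27B below the filter value. Such differences were common. A larger one in either direction was found for 70.9% of measured genes (RAB27A) and 49.9% of dim genes (RAB27B).

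Of the 5 synaptotagmin-like genes 3 were measured. SYTL1, also known as JFC1, which takes part in granule release in neutrophils, read 6.06 on the TFAP2E array and 5.97 on the empty vector array (log2 difference 0.09). SYTL4, or granuphilin, which docks insulin granules in pancreatic beta cells, read 5.85 and 5.90 on the TFAP2E and the empty vector array (-0.05). The probe sequences were not used here, so whether probes are shared between these relatives was not tested. Both differences lay inside -0.37 to 0.47, the range that held the central 95% of measured genes.

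SYTL2 and SYTL5 were dim on both arrays. SYTL2, which docks RAB27A-bearing vesicles at the plasma membrane, read 4.66 on the TFAP2E array and 4.13 on the empty vector array (0.53). This is the second largest difference of the 9 genes, and it lay above the central 95% of the 6869 dim genes, which ran from -0.43 to 0.40. In 58 dim genes the difference was higher still, and no replicate shows how often a probe set at that level moves so far. SYTL5, another family member that binds RAB27, read 2.99 on the TFAP2E array and 3.11 on the empty vector array (-0.12).

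Of the other effectors, UNC13D was measured and had the largest difference after SYTL3 among the measured members. It read 7.44 on the TFAP2E array and 7.14 on the empty vector array, which makes a log2 difference of 0.31, or 1.24-fold. A higher difference was found for 1049 of the 11548 measured genes, and the value lay inside their central 95%. MLPH read 5.51 on the TFAP2E array and 5.25 on the empty vector array (0.26), just below the filter value on the TFAP2E array, and was counted as dim.

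In all, 5 of the 9 genes passed the filter and 4 were dim, where 11548 of all 18417 genes passed. Of the 5 measured genes 3 were higher and 2 lower in the TFAP2E cells, with a median difference of 0.09, where 59.2% of all measured genes were above 0. The 4 dim genes split into 2 higher and 2 lower, where 46.2% of dim genes were above 0. SYTL3 alone passed the 2-fold rule, which 0.199% of measured genes passed in either direction and 0.0866% passed upward. No further measured member passed 1.5-fold (1.5% of measured genes), and no dim member did (1.51% of dim genes). Since SYTL3 was chosen for this difference, nothing is read from its count. The other 4 measured members ranged from -0.07 to 0.31.

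**Figure D2:**
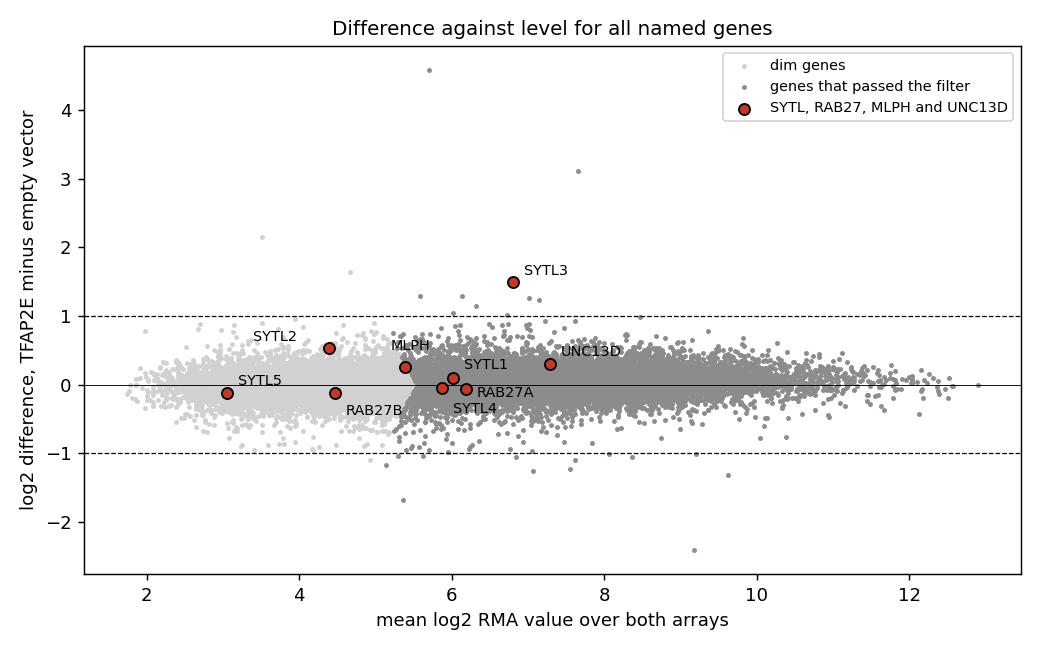
The log2 difference, TFAP2E minus empty vector (vertical axis), against the mean log2 RMA value over both arrays (horizontal axis) for 11548 measured genes (dark grey) and 6869 dim genes (light grey), with the 9 genes of the set in red and dashed lines at 2-fold. SYTL3 lies at 1.496, apart from the other 8 genes, which lie between -0.13 and 0.53.

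In the order of the difference over all measured genes SYTL3 was the third from the highest, below MAGEC2 (4.58) and ASB4 (3.11). The next genes below it were SLC1A2, a glutamate transporter, at 1.28, VIL1, the actin-bundling protein villin, at 1.28, and GMFG at 1.25. SYTL3 was 0.21 above SLC1A2. On the empty vector array MAGEC2 (3.42), SLC1A2 (5.50) and VIL1 (4.94) were below the filter value, so they entered this order through the TFAP2E array alone. ASB4 (6.10) and GMFG (6.38) were above the filter value on the empty vector array too. With 2 arrays, nearness in this order is the only likeness of pattern that can be given, and no replicate shows whether the order would hold.

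The measured genes beside SYTL3 on chromosome 6 differed by less than 1.5-fold. Of the 5 nearest annotated genes on either side, 2 were measured. DYNLT1, a dynein light chain, read 7.88 on the TFAP2E array and 7.53 on the empty vector array (0.35), and TMEM181 read 8.37 on the TFAP2E array and 8.56 on the empty vector array (-0.19). The pseudogene OSTCP1 was dim on both arrays (-0.15). The other 7 neighbours, among them EZR, had no probe set with a single symbol. Because so few were measured, the 5 nearest measured genes on either side were also taken, a choice made after the values were seen. Of those 10 genes 5 were higher and 5 lower, with a median of 0.02, from -0.36 for ACAT2, which makes acetoacetyl-CoA, to 0.35 for DYNLT1. SERAC1 (-0.04), GTF2H5 (-0.16), TULP4 (-0.07), RSPH3 (0.08), SOD2 (0.16), WTAP (0.11) and TCP1 (0.10) lay in between, and none of the 10 passed 1.5-fold.

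The 9 genes lie on 8 chromosomes, and only SYTL4 and SYTL5, both on X, share one. Around all 9 genes, 90 measured neighbours were taken by the same rule, with a median of 0.05. Of these, 1 passed 1.5-fold, near the 1.5% of all measured genes, the ribosome biogenesis gene RSL24D1 beside RAB27A, at 10.1 on the TFAP2E array and 9.51 on the empty vector array (0.59). Of the 10 measured neighbours of UNC13D 8 were higher, from -0.10 to 0.30, with a median of 0.11. Those of SYTL2 ran from -0.03 to 0.56, with 7 of 10 higher and a median of 0.07, where 59.2% of all measured genes were above 0. The highest neighbour median was 0.12, around RAB27A, with 6 of 10 higher, while RAB27A itself differed by -0.07. Around MLPH 7 of 10 were higher, around SYTL1, SYTL4 and SYTL5 6 of 10 each, and around RAB27B 5 of 10.

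**Figure D3:**
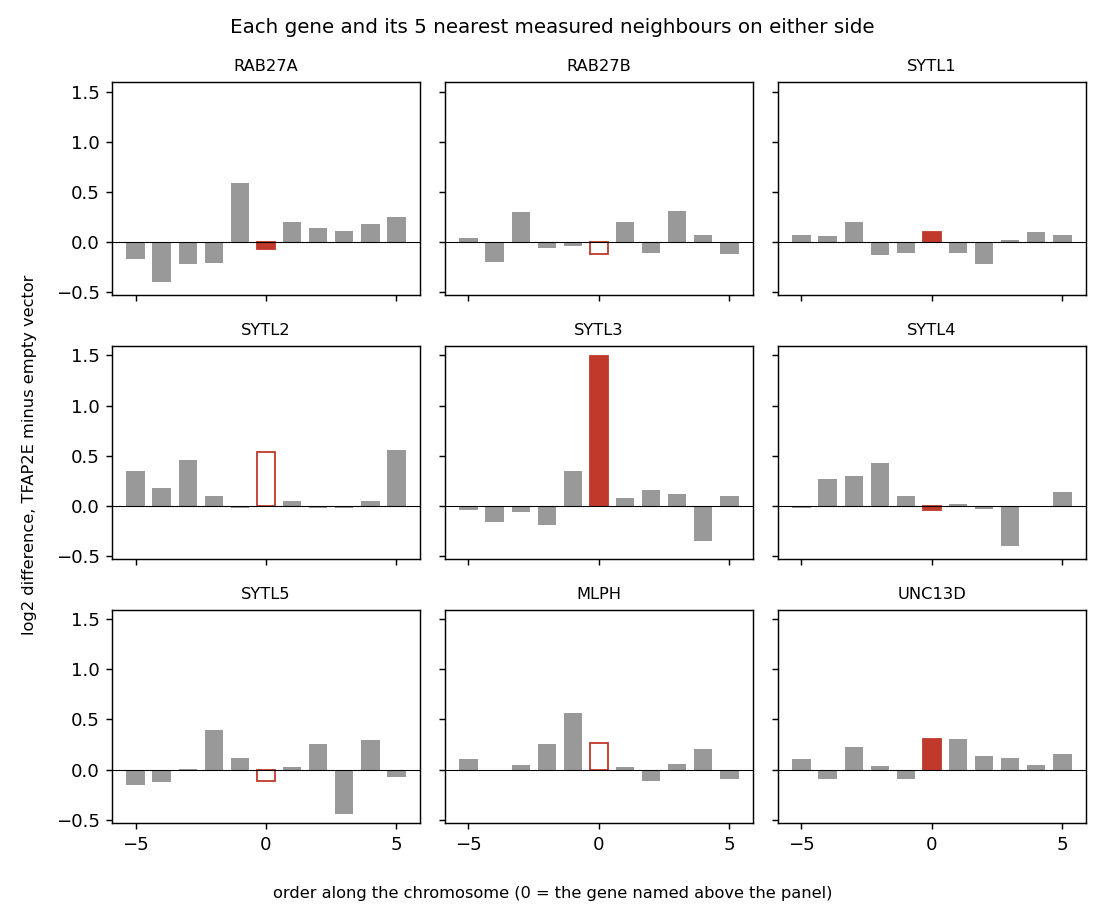
The log2 difference, TFAP2E minus empty vector (vertical axis), of each of the 9 genes (red, unfilled where dim) and of its 5 nearest measured neighbours on either side (grey), in the order in which they lie along the chromosome (horizontal axis, order only). SYTL3 reaches 1.496, while its neighbours stay between -0.36 and 0.35.

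The wider machinery of RAB27 and of exocytosis was described through 6 gene lists of 128 entries, 97 of them measured. Counts of measured genes are to be set beside the 11548 of all 18417 genes that passed the filter. Counts of higher genes in these lists are to be set beside the 59.2% of all measured genes that were above 0. None of the 97 passed 2-fold, and 1 passed 1.5-fold, against 1.5% of all measured genes. That gene was SYT12, an atypical synaptotagmin, which read 4.94 on the TFAP2E array and 5.59 on the empty vector array (-0.65), so that its TFAP2E value was dim.

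The list of RAB27 regulators and further effectors had 12 of 18 genes measured, 5 higher and 7 lower, with a median of -0.01, which was 0.01 when each array was centred on its median. RABGGTB, a subunit of the enzyme that attaches the lipid anchor of RAB proteins, differed by 0.34, and the RAB effector RPH3AL by 0.25. At the low end stood MYO5A, the myosin Va motor that MLPH recruits, at 7.82 on the TFAP2E array and 8.22 on the empty vector array (-0.40), and RIMS2, a release-site scaffold, at -0.35.

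Of the exocytic SNAREs and their helpers 23 of 26 were measured, 15 higher and 8 lower. Their median of 0.04 fell on either side of 0 with the scaling, at -0.01 after quantile normalization. NAPB, which helps to take SNARE complexes apart, differed by 0.36 and the plasma membrane SNARE SNAP23 by 0.28. STX11, a syntaxin of cytotoxic granule release, differed by -0.28 and STXBP5, or tomosyn, which binds syntaxins, by -0.25.

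All 9 exocyst genes, which encode a complex that tethers vesicles at the plasma membrane, were measured, 6 higher and 3 lower, with a median of 0.17 beside 0.04 for all measured genes. The median was 0.10 when the probe sets of a gene were averaged. EXOC4 read 8.79 on the TFAP2E array and 8.34 on the empty vector array (0.45), and EXOC1 differed by 0.32. EXOC6B (-0.17) and EXOC7 (-0.12) were lowest. Other RABs of secretory traffic and their partners were measured in 19 of 23 cases, 15 higher and 4 lower, with a median of 0.10, or 0.06 once a loess trend of the difference on the level was removed. RAB31 (0.45) and RAB3D (0.39), a RAB of secretory granules, were highest, and RAB3A (-0.22) and the RAB11 effector RAB11FIP1 (-0.16) lowest.

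Synaptotagmins and other C2 domain release factors were dim in many cases, with 14 of 28 measured. Of these 5 were higher and 9 lower, with a median of -0.16, which became 0.01 when the dim members were added. CADPS, which primes dense-core vesicles, read 6.43 on the TFAP2E array and 5.91 on the empty vector array (0.52), and DOC2A differed by 0.17. Besides SYT12 the lowest was UNC13B, a relative of UNC13D that primes synaptic vesicles, at -0.46. Exosome and multivesicular body genes were measured in 20 of 24 cases, 13 higher and 7 lower, with a median of 0.05, near that of all genes, or 0.00014 with that trend removed. The ESCRT components CHMP4C (0.42) and TSG101 (0.39) were highest, and the tetraspanin CD82 (-0.41) and the flotillin FLOT2 (-0.35) lowest. CD63, CD9 and CD81, tetraspanins used as exosome markers and named after their values were seen, differed by -0.07, -0.15 and 0.05.

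**Figure D4:**
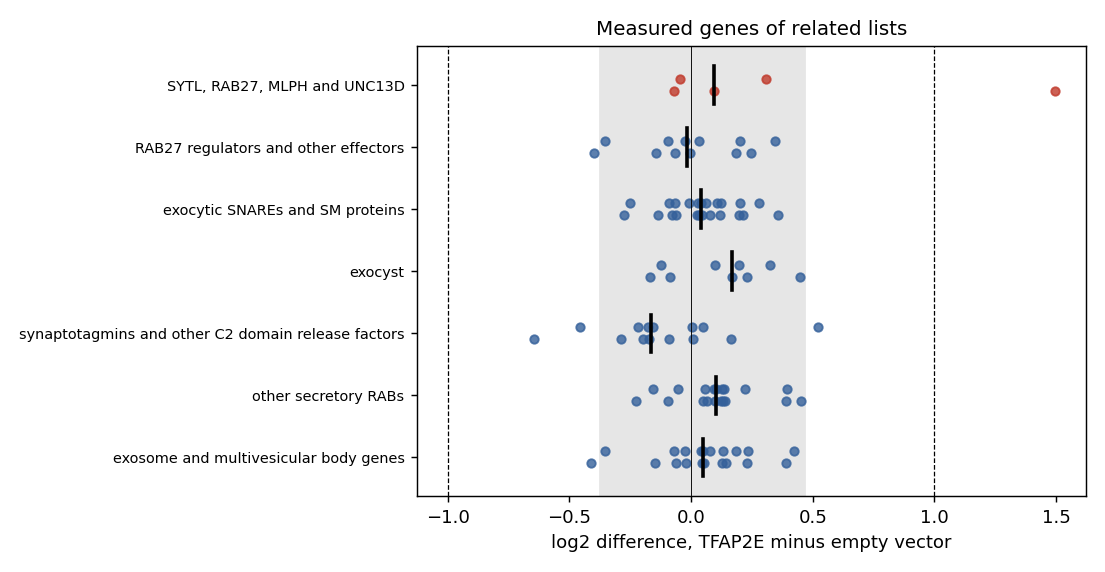
The log2 difference, TFAP2E minus empty vector (horizontal axis), of each measured gene of the set (red) and of the 6 related lists (blue), with the median of each as a black bar, the central 95% of all measured genes shaded and dashed lines at 2-fold. SYTL3 at 1.496 is the only point past 2-fold, and the list medians lie between -0.16 and 0.17.

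The cells carried epithelial transcripts on both arrays. The counts of measured markers given here also stand beside 11548 measured genes of 18417, so a count alone does not show a cell type. Of 12 colorectal epithelial markers 9 were measured, among them KRT18, at 12.55 on the TFAP2E array and 12.57 on the empty vector array, and KRT8, at 12.1 on the TFAP2E array and 12.3 on the empty vector array. The mean log2 value of that list was 7.54 on the TFAP2E array and 7.57 on the empty vector array. Within it CDH1 differed by -0.71 and VIL1 by 1.28. VIL1 read 6.22 on the TFAP2E array and 4.94 on the empty vector array, so that its empty vector value was dim. The epithelial markers KRT20, CDH17 and GPA33 were dim on both arrays. Cell types known for RAB27-dependent granules were also looked at. Of 12 leukocyte markers 5 were measured, among them PRF1, at 9.83 on the TFAP2E array and 9.76 on the empty vector array, and CD68, at 6.60 on the TFAP2E array and 6.02 on the empty vector array (0.57). ITGB2 differed the other way, at 5.38 on the TFAP2E array and 5.93 on the empty vector array (-0.55), and NKG7 (0.18) and GZMB (0.03) were the other 2 measured. The defining leukocyte marker PTPRC was dim. The list mean was 5.06 on the TFAP2E array and 5.02 on the empty vector array. Of 7 melanocyte markers on the array 3 were measured, GPR143 (0.51), MITF (-0.07) and SOX10 (-0.28), and PMEL, MLANA, TYR and TYRP1 were dim. That list mean was 4.82 on the TFAP2E array and 4.69 on the empty vector array. Of 8 fibroblast markers 2 were measured, with a list mean of 4.47 on the TFAP2E array and 4.52 on the empty vector array, and of 7 endocrine markers 1, with 4.41 on each array. The part of any of these in the SYTL3 value was not tested. In RNA from a whole culture, a change in the share of cells that carry a transcript and a change in the transcript per cell cannot be told apart.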

How the data were processed

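The deposited values are on the log2 scale, 1 per probe set, and the authors used RMA, per the submitters' processing notes. The RMA software and the genome build were not given in the sources used here. The values of 33297 probe sets on 2 arrays were used as deposited, and the number of arrays limits the precision. Gene names came from the platform annotation and were brought up to date by Entrez identifier with a RefSeq table (GRCh38.p14), which held 19429 of the 19460 probe sets with a single symbol. A gene took its probe set with the highest mean, and was measured when the higher value reached the median of all probe sets (5.55). Differences are TFAP2E minus empty vector. No statistical test was possible with 1 array per group.

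Named genes were the 9 genes with every probe set, TFAP2E, and the genes next to SYTL3 in the order of the difference. The neighbours of SYTL3 and any other neighbour past 1.5-fold were also named. Each related list gave its 2 highest and 2 lowest measured genes and those past 1.5-fold. The epithelial, leukocyte and melanocyte lists gave the 2 markers with the highest values and those past 1.5-fold. MITF and SOX10 were both named after their values were seen, and their order differs between the arrays. ITGB2, NKG7, GZMB, PTPRC, PMEL, MLANA, TYR, TYRP1, KRT20, CDH17 and GPA33 were named outside this rule with their values known. The members and lists were chosen with earlier results of these data known. Alternatives were 3 scalings, the mean of probe sets, 3 filters, a floor, other thresholds, all probe sets and other motifs. Scripts (Python 3.11.15, pandas 2.3.3) were tested on simulated data.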

Additional observations from a re-analysis of the deposited data

How the results depend on the processing

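Under the 3 scalings the 27 values of the 9 genes moved by less than 0.219, which is 1 standard deviation of the difference over all measured genes, and none changed sign. SYTL3 lay between 1.47 and 1.52. The medians of the deposited values were already close, at 5.54 on the TFAP2E array and 5.56 on the empty vector array. The scalings therefore had little room to move a value and say little of stability. The filters and the mean of probe sets cannot move a gene with 1 probe set and say nothing of stability, and the floor at the 20th percentile moved SYTL5 alone, to 0. SYTL3 passed 2-fold in each alternative but the 3-fold threshold, at which 0 members passed. With no filter 9 members counted as measured, with the filter at the 25th percentile 8, and at the 75th percentile 2. Over all measured genes 10 were higher and 13 lower at 2-fold, which became 5 and 8 with the filter at the 75th percentile. The counts were 103 and 70 at a 1.5-fold threshold and 2 and 2 at 3-fold. When probe sets were counted in place of genes, all that reached the filter value, named or not, 21 were higher and 75 lower at 2-fold. At 1.5-fold 103 were higher and 70 lower. The filter at the 75th percentile gave 42 and 26, and lower genes numbered 111 with the filter at the 25th percentile and 128 with none. These changes follow from the thresholds and from how many genes or probe sets enter. The median of the synaptotagmin list became 0.01 (0.0066) with no filter and with the filter at the 25th percentile, where its dim genes enter. The other 5 list medians moved by less than 0.1, the exocyst median to 0.098 with the mean of probe sets. The share of promoters with an AP-2 motif was 21.4% with 4 bases between GCC and GGC and 36.0% for GCCNNNGGG, against 23.2% for GCCNNNGGC. No paired analysis was possible because there is 1 array in each group.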
